A study of Mus musculus with 14 samples.

Results

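Matricellular proteins are secreted into the extracellular matrix, where they bind cells, growth factors and collagen without forming the main load-bearing fibres. The 10 genes described here encode such proteins: the fasciclin-domain proteins periostin (Postn) and transforming growth factor beta induced (Tgfbi), tenascin C (Tnc), the thrombospondins (Thbs1, Thbs2, Thbs3 and Thbs4), the collagen-binding protein Sparc with its paralogue hevin (Sparcl1), and osteopontin (Spp1). They were taken by their symbols from a deposited table of 54532 mouse genes, and all 10 were among the 15876 genes that passed the filter on low counts. The table holds polyadenylated RNA read counts from ventricular tissue of mouse hearts, collected 1 week after surgery. The operation was transverse aortic constriction (TAC), which narrows the aortic arch and so loads the left ventricle with pressure, or a sham procedure. Of the 14 libraries, 4 came from Ccl24 knockout hearts after TAC (numbered 1, 2, 4 and 5), 2 from Ccl24 knockout hearts after sham surgery, 6 from wild type hearts after TAC (numbered 1, 2, 3, 4, 6 and 7) and 2 from wild type hearts after sham surgery. Ccl24 is a chemokine gene. The knockout allele and the strain, sex and age of the mice were not found in the labels. The design text gives as many mice per group as there are libraries.

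In the healthy adult heart most matricellular genes are expressed at low levels, and injury or pressure overload raises several of them, largely in fibroblasts, macrophages and stressed cardiomyocytes. Periostin and Sparc take part in the assembly of collagen fibrils, tenascin C loosens the attachment of cells to the matrix, and thrombospondin 1 can release active TGF-beta from its latent complex. Osteopontin is a phosphorylated ligand of integrins and of the receptor CD44 that injured hearts produce, partly from macrophages.

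The libraries held 17072262 to 33123052 counts. Mitochondrially encoded genes took 14.9% to 19.2% of the counts in knockout TAC, 20.5% to 23.7% in knockout sham, 10.1% to 17.1% in wild type TAC and 18.5% to 18.8% in wild type sham. The targeted gene Ccl24 had 3 to 8 counts in the 6 knockout libraries, 61 and 72 counts in wild type sham, and 56 to 105 counts in wild type TAC replicates 2, 3, 4, 6 and 7. The library labelled wild type TAC 1 had 3 Ccl24 counts (exact 95% Poisson interval 0.619 to 8.77, which covers counting error only) and thus did not match the genotype on its label. Its group was left as labelled, and calls and counts that rest on it are also given without it where they changed. The 8 cardiomyocyte markers, among them Myh6 and Tnnt2, were all detected in every group and summed to 50569 to 59704 CPM in knockout TAC, 62606 to 63717 CPM in knockout sham, 41383 to 54568 CPM in wild type TAC and 55698 to 57697 CPM in wild type sham. CPM are counts scaled to the library total with TMM factors, and they are the unit of all levels given. The p-values of the main comparisons set each difference against a spread between libraries that was estimated with all 4 groups together.

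In wild type hearts 9 of the 10 genes had a positive log2 fold change after TAC, and 4 passed the test, all higher: Postn, Tnc, Sparc and Tgfbi (edgeR's quasi-likelihood test, Benjamini-Hochberg adjusted p under 0.05 over all genes tested). Of all genes tested, 6.36% passed in that direction. Leaving out the library labelled wild type TAC 1 the count was 7, with Thbs1, Thbs3 and Sparcl1 added, against 9.25% of all genes. In knockout hearts 9 of the 10 genes also had a positive log2 fold change after TAC, but 0 passed by edgeR, where 4.08% of all genes passed in either direction. Of the 10, 6 had an unadjusted p under 0.05 by edgeR, but the share of all genes under that rule is not given. That count is therefore not read as a result. DESeq2 called 6 (9.17% of the genes with an adjusted p) and limma voom 2 (3.04% of all genes). Leaving out the library labelled wild type TAC 1, Postn and Sparc were higher (2.87% of all genes). That library is in neither knockout group and enters this comparison through the estimate of the spread that all groups share. Between the genotypes after TAC, 3 genes passed and all were lower in knockout hearts: Thbs2, Thbs3 and Sparcl1. Of all genes, 5.63% were lower there. Without that library 6 were lower, with Postn, Thbs4 and Tgfbi added, against 10% of all genes.

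The median log2 fold change over the 10 genes was 1.62 after TAC in knockout hearts and 1.66 in wild type hearts, where the medians over all genes tested were -0.01 and 0.01. The comparison of genotypes after TAC had a median of -0.72 over the 10 genes and of -0.01 over all genes. Leaving out the library labelled wild type TAC 1, the medians over the 10 genes were 1.79 after TAC in wild type hearts and -0.85 between the genotypes after TAC. After sham surgery the median between genotypes was -0.39 over the 10 genes and 0.01 over all genes. The TAC libraries of a genotype enter both its surgery comparison and the comparison of genotypes after TAC, so these medians are not independent of each other. In bulk tissue, fewer cells of a type and less RNA per cell cannot be told apart.

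Markers of other cell types moved with these comparisons. Of 10 fibroblast markers, 6 were higher after TAC in wild type hearts, 1 was higher (Col15a1) and 1 lower (Scara5) after TAC in knockout hearts, and 7 were lower in knockout TAC than in wild type TAC. With the library labelled wild type TAC 1 left out, these counts were 7 higher in wild type, 3 higher and 0 lower in knockout, and 9 lower between the genotypes. Their summed level was 3285 to 3970 CPM in knockout TAC, 4083 to 4570 CPM in knockout sham, 4729 to 6345 CPM in wild type TAC and 4706 to 4769 CPM in wild type sham. Of 8 macrophage markers, all 8 were higher after TAC in wild type hearts, Cd163 alone passed and was lower after TAC in knockout hearts, and 5 were lower in knockout TAC than in wild type TAC. Without that library Cd68 was also higher after TAC in knockout hearts, and all 8 were lower between the genotypes. Summed, they gave 447 to 596 CPM in knockout TAC, 420 to 443 CPM in knockout sham, 518 to 984 CPM in wild type TAC and 407 to 429 CPM in wild type sham. Of 10 markers of activated fibroblasts other than Postn, Meox1 alone passed after TAC in knockout hearts, 5 were higher after TAC in wild type hearts (Fap, Meox1, Col8a1, Mfap5 and Cilp), and 0 passed between the genotypes after TAC by edgeR. Without the same library the counts were 2 higher in knockout hearts and 5 higher in wild type hearts, with 1 higher and 2 lower between the genotypes. Their sums were 707 to 1241 CPM in knockout TAC, 718 to 915 CPM in knockout sham, 642 to 1876 CPM in wild type TAC and 423 to 547 CPM in wild type sham. A sum is weighted to abundant genes and does not stand for each of these 10 markers. Their median log2 fold change was 1.66 after TAC in knockout hearts and 2.15 after TAC in wild type hearts. For knockout against wild type it was -1.03 after TAC and -0.37 after sham surgery. Cardiomyocyte markers had lower sums in all TAC libraries than in the sham libraries of the same genotype, with Pln lower after TAC in knockout hearts, Pln and Ryr2 lower after TAC in wild type hearts, and Tnni3 higher in knockout TAC than in wild type TAC (3 of 8 higher without that library). Of 8 immediate early genes, which respond to tissue handling among other stimuli, 6 were higher after TAC in knockout hearts, 1 was higher after TAC in wild type hearts, and 5 were higher in knockout TAC than in wild type TAC. Their sum was 215 to 267 CPM in knockout TAC, 98.2 to 99.2 CPM in knockout sham, 131 to 207 CPM in wild type TAC and 116 CPM in both wild type sham libraries. No fibroblast, macrophage or immediate early marker was at 0 counts over a group. Of 5 platelet markers, which matter here because platelets carry thrombospondin 1, Gp1bb had 0 counts in every group, 3 could be tested and 0 passed by edgeR, with sums of 10.7 to 13.4 CPM in knockout TAC, 9.14 to 10.9 CPM in knockout sham, 11.8 to 14.4 CPM in wild type TAC and 8.88 to 10.6 CPM in wild type sham. The part of these markers and of the mitochondrial share in the results on the 10 genes was not tested.

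**Figure D1:**
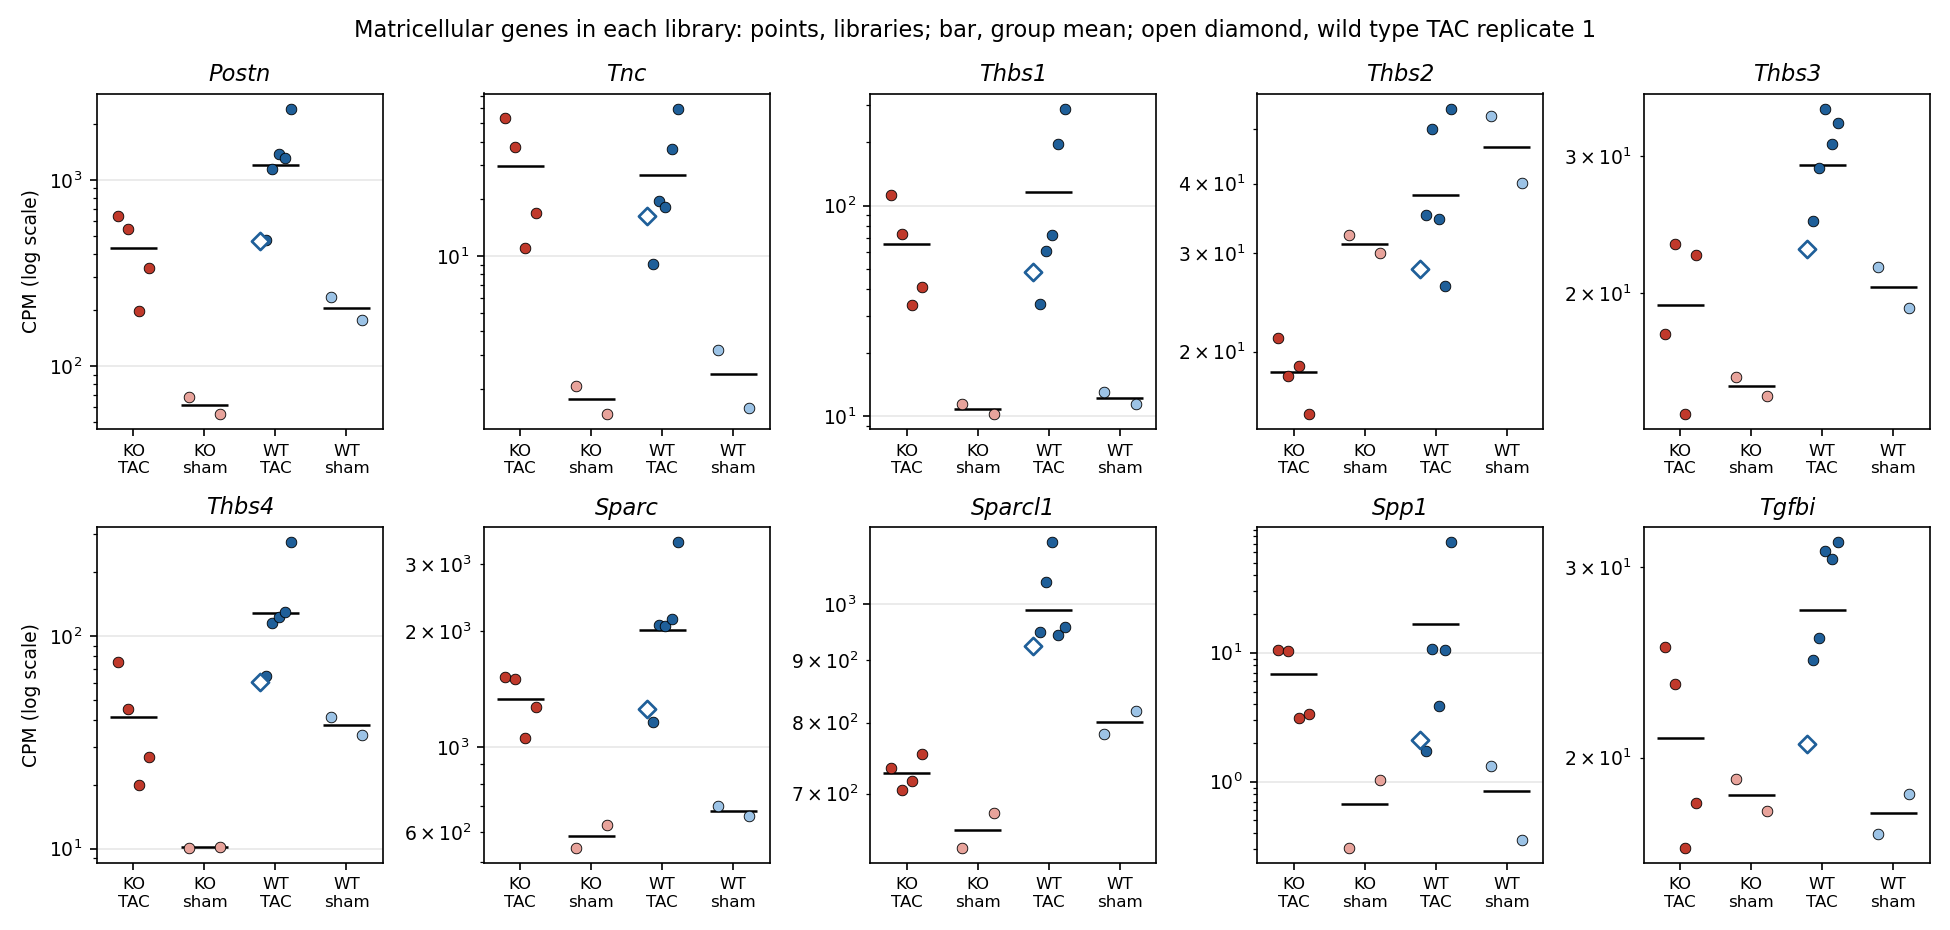
Level of each matricellular gene in CPM on a log axis, with 1 panel per gene, 1 point per library and a bar at the group mean; the open diamond is the library labelled wild type TAC 1. The TAC points lie above the sham points of the same genotype in most panels, the knockout TAC points of Thbs2 (15.5 to 21.1 CPM) and Sparcl1 (704 to 754 CPM) lie below all wild type TAC points, and those of Tnc overlap them.

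Divided by exon length, which allows levels of different genes to be compared, Sparc and Sparcl1 stood far above the other genes. Sparc averaged 353 ± 57.9 CPM per kb of exon in knockout TAC (SD, n = 4), 154 ± 14.4 in knockout sham (n = 2), 534 ± 215 in wild type TAC (n = 6) and 180 ± 8.10 in wild type sham (n = 2). Sparcl1 averaged 248 ± 7.28 CPM per kb in knockout TAC, 223 ± 10.4 in knockout sham, 337 ± 26.3 in wild type TAC and 273 ± 8.17 in wild type sham. Their order thus depended on the surgery, with Sparc above Sparcl1 in the means of both TAC groups and below it in both sham groups. Postn was next, at 49.3 ± 22.9 CPM per kb in knockout TAC, 7.10 ± 1.06 in knockout sham, 138 ± 82.4 in wild type TAC and 23.6 ± 4.56 in wild type sham. Thbs4 and Thbs1 followed after TAC, with 12.7 ± 7.46 and 10.8 ± 5.95 CPM per kb in knockout hearts, and 38.8 ± 23.7 and 19.2 ± 16.9 CPM per kb in wild type hearts. The remaining genes, namely Spp1, Tgfbi, Thbs3, Thbs2 and Tnc, averaged 2.62 to 5.53 CPM per kb in knockout TAC and 3.42 to 10.2 CPM per kb in wild type TAC, and neighbours in that order had ranges over libraries that overlapped. Tnc and Spp1 were the lowest in the sham groups, with 0.227 and 0.406 CPM per kb in knockout sham and 0.307 and 0.509 CPM per kb in wild type sham.

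**Figure D2:**
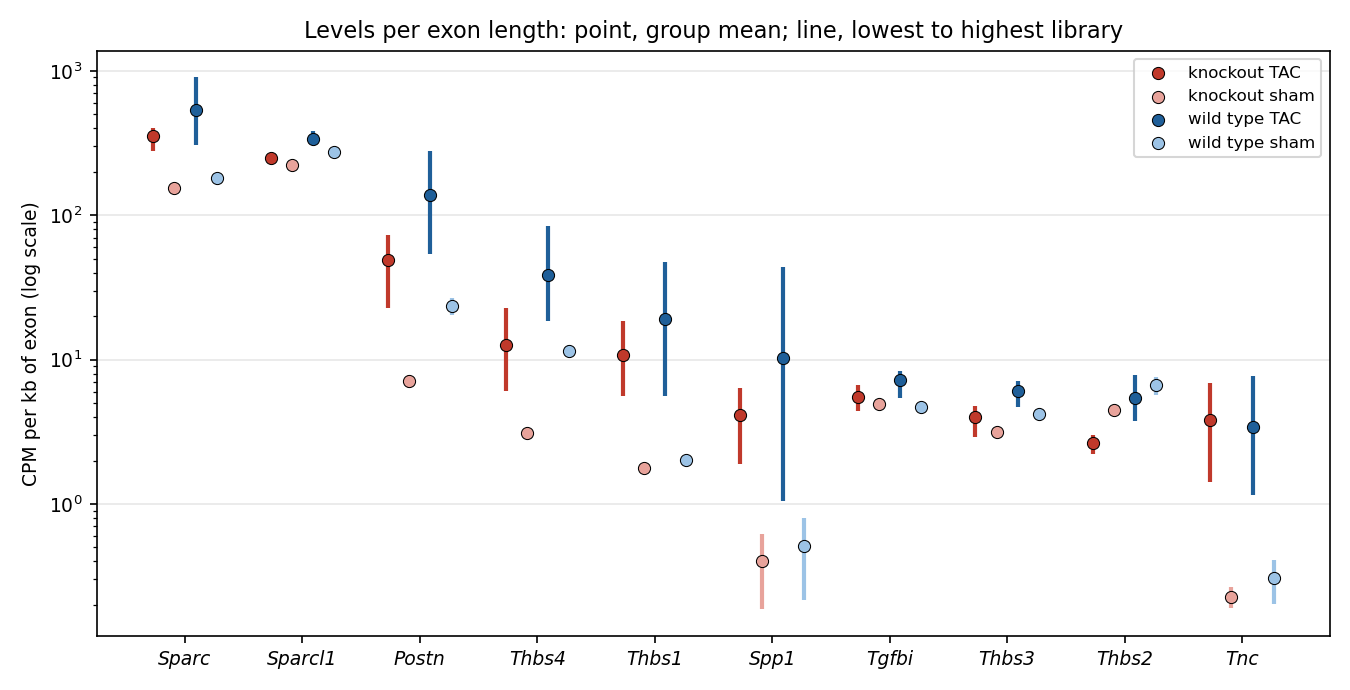
CPM per kb of exon on a log axis for each gene, ordered by level, with a point at the mean of each group and a line between its lowest and highest library. Sparc and Sparcl1 lie at 154 CPM per kb or more in all 4 group means, and the TAC and sham points are farthest apart for Tnc, Spp1, Thbs1 and Postn.

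Postn (ENSMUSG00000027750, GRCm38 chromosome 3, 54361109 to 54391037, plus strand) encodes periostin, an integrin ligand that activated fibroblasts secrete and that binds collagen. It had 636, 547, 198 and 336 CPM in knockout TAC replicates 1, 2, 4 and 5, against 68.3 and 55.2 CPM in knockout sham. Wild type TAC libraries ranged over 470 CPM (lowest), 1229 CPM (median) and 2409 CPM (highest), against 234 and 178 CPM in wild type sham. Every TAC library lay above every sham library of its genotype, and both knockout sham libraries lay below both wild type sham libraries. The log2 fold change after TAC was 2.80 ± 0.73 (SE) in knockout hearts (adjusted p = 0.0589, and 0.043 leaving out the library labelled wild type TAC 1). In wild type hearts Postn rose, with a log2 fold change of 2.54 ± 0.70 (adjusted p = 0.0406, and 0.0216 without that library). After TAC the knockout hearts had a log2 fold change of -1.48 ± 0.49 against wild type hearts, which missed the threshold (adjusted p = 0.0787). Wild type TAC replicates 1 and 2, at 470 and 473 CPM, lay among the knockout TAC values, and the other 4 wild type TAC libraries lay above them all. Leaving out the library labelled wild type TAC 1 Postn was lower in knockout TAC, with a log2 fold change of -1.65 ± 0.46 (adjusted p = 0.0359). After sham surgery the log2 fold change of knockout against wild type was -1.74 ± 0.75, with an unadjusted p of 0.0416 and an adjusted p of 0.416. As a share of the summed CPM of the 10 genes, Postn made up 19.9%, 18.3%, 9.47% and 13.4% in the knockout TAC libraries and 16.5% to 31.7% in wild type TAC, and 5.10% and 3.84% in knockout sham against 12.5% and 9.97% in wild type sham. The rise of Postn after TAC in wild type hearts passed in 5 of 14 fits that each left out 1 library, with adjusted p from 0.0201 to 0.0444 in those. The call was lost, with adjusted p from 0.0501 to 0.288, in the fits without wild type TAC 3, 4 or 6, wild type sham 1 or 2, knockout TAC 2 or 5, or knockout sham 1 or 2.

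Tgfbi (ENSMUSG00000035493, chromosome 13, 56609523 to 56639562, plus strand) encodes a paralogue of periostin that binds collagen and integrins and is induced by TGF-beta. It had 25.3, 23.4, 16.5 and 18.2 CPM in knockout TAC, against 19.1 and 17.9 CPM in knockout sham. In wild type TAC the lowest, median and highest libraries had 20.6, 28.2 and 31.6 CPM, against 17.0 and 18.5 CPM in wild type sham. The knockout groups overlapped, and all wild type TAC libraries lay above wild type sham. Its log2 fold change after TAC was 0.18 ± 0.18 in knockout hearts (adjusted p = 0.629). Tgfbi rose in wild type hearts by 0.62 ± 0.18 on the log2 scale (adjusted p = 0.0336, and 0.0102 leaving out the library labelled wild type TAC 1). This call was lost in the fits without wild type sham 1, wild type sham 2, wild type TAC 4 and wild type TAC 6, with adjusted p of 0.255, 0.222, 0.0622 and 0.0567. Knockout TAC against wild type TAC gave -0.39 ± 0.13 (adjusted p = 0.0731), and it passed leaving out the library labelled wild type TAC 1, at -0.46 ± 0.12 (adjusted p = 0.017). The genotype by surgery interaction of Tgfbi was -0.45 ± 0.25 on the log2 scale, with a 95% interval of -0.98 to 0.08.

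Tnc (ENSMUSG00000028364, chromosome 4, 63959785 to 64047015, minus strand) encodes tenascin C, which is nearly absent from healthy adult myocardium and returns after injury. It had 53.6, 37.6, 11.003 and 17.0 CPM in knockout TAC, against 2.05 and 1.47 CPM in knockout sham. In wild type TAC it had 9.04 CPM at the lowest, 18.8 CPM at the median and 59.7 CPM at the highest, against 3.20 and 1.57 CPM in wild type sham. All TAC libraries lay above the sham libraries, and the knockout TAC values spanned nearly the same range as the wild type TAC values. The log2 fold change after TAC was 4.08 ± 1.05 in knockout hearts (adjusted p = 0.057, and 0.0618 leaving out the library labelled wild type TAC 1). Tnc rose in wild type hearts by 3.46 ± 0.97 on the log2 scale (adjusted p = 0.0432, and 0.0396 without that library), and this call held in 5 of 14 fits that left out 1 library. Its adjusted p lay between 0.0511 and 0.298 in the 9 fits that lacked the same libraries as named for Postn. Tnc alone of the 10 genes had a positive log2 fold change of knockout against wild type after TAC, at 0.16 ± 0.56, with a 95% interval of -1.06 to 1.39 that leaves room for a change in either direction (adjusted p = 0.874, and 0.957 leaving out the library labelled wild type TAC 1). Without knockout TAC replicate 1 it was -0.28. The deposited counts of Tnc share 176 exon bases (2.27% of its exons) with 8030451A03Rik on the opposite strand, and whether the counting used strand is not given.

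Thbs1 (ENSMUSG00000040152, chromosome 2, 118111876 to 118127133, plus strand) encodes thrombospondin 1, an inhibitor of angiogenesis and an activator of latent TGF-beta. It had 113, 73.8, 33.9 and 41.1 CPM in knockout TAC, against 11.4 and 10.2 CPM in knockout sham. Wild type TAC libraries had 34.1 CPM (lowest), 66.7 CPM (median) and 289 CPM (highest), against 13.1 and 11.4 CPM in wild type sham. All TAC libraries lay above all sham libraries, and wild type TAC replicates 6 and 7, with 196 and 289 CPM, stood above every other library. Thbs1 gave a log2 fold change of 2.60 ± 0.98 in knockout hearts (adjusted p = 0.16) and 3.25 ± 0.98 in wild type hearts (adjusted p = 0.0548). Leaving out the library labelled wild type TAC 1 the wild type change passed, at 3.41 ± 0.97 (adjusted p = 0.0402). Knockout TAC against wild type TAC gave a log2 fold change of -0.84 ± 0.63 (adjusted p = 0.412, and 0.307 without that library), with a 95% interval of -2.22 to 0.55. Exons of Thbs1 share 208 bases with Gm29233 on the opposite strand.

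Thbs2 (ENSMUSG00000023885, chromosome 17, 14665500 to 14694235, minus strand) encodes thrombospondin 2, also an inhibitor of angiogenesis, which binds matrix metalloproteinase 2 and is cleared with it through the receptor Lrp1. It was the only gene of the 10 with a negative log2 fold change after TAC in both genotypes. It had 21.1, 18.1, 18.9 and 15.5 CPM in knockout TAC, against 32.4 and 30.1 CPM in knockout sham. In wild type TAC it had 26.2 CPM (lowest), 34.8 CPM (median) and 54.4 CPM (highest), against 52.8 and 40.1 CPM in wild type sham. All 4 knockout TAC libraries lay below both knockout sham and all wild type TAC libraries, and the wild type groups overlapped. Thbs2 was lower in knockout TAC than in wild type TAC, with a log2 fold change of -1.05 ± 0.20 (adjusted p = 0.0103, and 0.00293 leaving out the library labelled wild type TAC 1). The call held in all 14 fits that left out 1 library and in all 6 other settings tried. After TAC its log2 fold change was -0.76 ± 0.26 in knockout hearts (adjusted p = 0.116) and -0.28 ± 0.24 in wild type hearts (adjusted p = 0.451, and 0.562 without that library). After sham surgery knockout against wild type gave -0.58 ± 0.30 (adjusted p = 0.499). The fibroblast markers that were lower in the same comparison of genotypes had log2 fold changes of -0.69 for Pdgfra, -0.91 for Tcf21, -0.54 for Dpt, -0.77 for Col15a1, -0.47 for Dcn, -1.25 for Mmp2 and -0.90 for Cd248, and their part in the Thbs2 difference was not tested.

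Thbs3 (ENSMUSG00000028047, chromosome 3, 89215180 to 89226837, plus strand) encodes thrombospondin 3, which in mouse cardiomyocytes has been linked to the integrin content of the cell surface. It had 17.7, 23.2, 13.96 and 22.4 CPM in knockout TAC, against 15.6 and 14.7 CPM in knockout sham. Wild type TAC libraries had 22.8 CPM (lowest), 30.0 CPM (median) and 34.5 CPM (highest), against 21.6 and 19.1 CPM in wild type sham. Knockout TAC replicate 2 lay just above the lowest wild type TAC library, the one labelled replicate 1, and the other 3 knockout TAC libraries lay below all wild type TAC libraries. Thbs3 was lower in knockout TAC than in wild type TAC, with a log2 fold change of -0.60 ± 0.14 (adjusted p = 0.0209, and 0.00486 leaving out the library labelled wild type TAC 1). The call was lost without knockout TAC replicate 4 (adjusted p = 0.0655) or wild type TAC replicate 4 (0.0516). It was also lost with a term for each replicate number in the fit (0.382). The log2 fold change after TAC was 0.35 ± 0.20 in knockout hearts (adjusted p = 0.33) and 0.52 ± 0.18 in wild type hearts (adjusted p = 0.0747, and 0.0326 without the library labelled replicate 1). Exons of Thbs3 share 318 bases (6.59% of its exons) with Mtx1 on the opposite strand, and how much of its counts this touches is not known.

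Thbs4 (ENSMUSG00000021702, chromosome 13, 92751590 to 92794818, minus strand) encodes thrombospondin 4, which in mouse cardiomyocytes binds the stress sensor Atf6 inside the cell. It had 74.9, 45.1, 19.9 and 26.9 CPM in knockout TAC, against 10.1 CPM in both knockout sham libraries. Wild type TAC libraries had 60.6 CPM (lowest), 119 CPM (median) and 275 CPM (highest), against 41.4 and 34.3 CPM in wild type sham. Knockout TAC replicates 4 and 5 lay below both wild type sham libraries, and knockout TAC replicate 1 alone lay within the wild type TAC range. For Thbs4 the log2 fold change after TAC was 2.04 ± 0.72 in knockout hearts (adjusted p = 0.137) and 1.75 ± 0.65 in wild type hearts (adjusted p = 0.101, and 0.0683 leaving out the library labelled wild type TAC 1). Knockout TAC against wild type TAC gave -1.61 ± 0.49 (adjusted p = 0.0608), and it passed leaving out the library labelled wild type TAC 1, at -1.76 ± 0.48 (adjusted p = 0.0326). After sham surgery the log2 fold change was -1.90 ± 0.78, with an unadjusted p of 0.0332 and an adjusted p of 0.387.

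Sparc (ENSMUSG00000018593, chromosome 11, 55394500 to 55423183, minus strand) encodes a calcium-binding glycoprotein that binds collagen and aids its deposition. It had 1517, 1504, 1055 and 1270 CPM in knockout TAC, against 546 and 624 CPM in knockout sham. In wild type TAC it had 1158 CPM (lowest), 2072 CPM (median) and 3416 CPM (highest), against 703 and 659 CPM in wild type sham. All TAC libraries lay above all sham libraries, and wild type TAC replicates 1 and 2, with 1253 and 1158 CPM, lay within the knockout TAC range. In knockout hearts the log2 fold change after TAC was 1.19 ± 0.35 (adjusted p = 0.0729, and 0.0495 leaving out the library labelled wild type TAC 1). Sparc rose in wild type hearts by 1.57 ± 0.35 on the log2 scale (adjusted p = 0.0162, and 0.00723 without that library), and this call was lost without wild type sham replicate 1 (adjusted p = 0.159) or 2 (0.196). Knockout TAC against wild type TAC gave a log2 fold change of -0.60 ± 0.25 (adjusted p = 0.137, and 0.0561 without the library labelled replicate 1).

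Sparcl1 (ENSMUSG00000029309, chromosome 5, 104079111 to 104113733, minus strand) encodes hevin, the paralogue of Sparc, which is also made by endothelial cells. It varied least of the 10 genes. It had 734, 704, 717 and 754 CPM in knockout TAC, against 633 and 676 CPM in knockout sham. Wild type TAC libraries had 924 CPM (lowest), 953 CPM (median) and 1123 CPM (highest), against 784 and 818 CPM in wild type sham. All 4 knockout TAC libraries lay below all wild type libraries, sham included. Sparcl1 was lower in knockout TAC than in wild type TAC, with a log2 fold change of -0.44 ± 0.08 (adjusted p = 0.00577, and 0.00149 leaving out the library labelled wild type TAC 1), and the call held in all 14 fits that left out 1 library. The log2 fold change after TAC was 0.15 ± 0.11 in knockout hearts (adjusted p = 0.449) and 0.31 ± 0.10 in wild type hearts (adjusted p = 0.0625, and 0.0372 without the library labelled replicate 1). After sham surgery knockout against wild type gave -0.29 ± 0.12, with an unadjusted p of 0.0323 and an adjusted p of 0.385. Of the 6 endothelial markers, Cldn5 (0.88) and Egfl7 (0.69) were higher in knockout TAC than in wild type TAC on the log2 scale, and 0 were lower. Leaving out the library labelled wild type TAC 1, 3 were higher and 0 lower. Thbs2 and Sparcl1 were the 2 genes of the 10 with no overlap between knockout TAC and wild type TAC, both lower in knockout, where 4.08% of all genes had no overlap in that direction. Without the library labelled wild type TAC 1, Thbs3 joined them, and the share of all genes was 7.56%.

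Spp1 (ENSMUSG00000029304, chromosome 5, 104435118 to 104441050, plus strand) had the widest spread. It had 10.4, 10.3, 3.09 and 3.33 CPM in knockout TAC, against 0.308 and 1.03 CPM in knockout sham, where it rested on 6 and 21 counts. Wild type TAC libraries had 1.73 CPM (lowest), 7.17 CPM (median) and 71.9 CPM (highest), against 1.32 and 0.355 CPM (31 and 7 counts) in wild type sham. Wild type TAC replicate 7 alone held the 71.9 CPM, and the next library, replicate 3, held 10.7 CPM. Every TAC library lay above the sham libraries of its genotype, but the standard errors were large. For Spp1 the log2 fold change after TAC was 3.34 ± 1.98 in knockout hearts (adjusted p = 0.372) and 4.29 ± 1.84 in wild type hearts (adjusted p = 0.147, and 0.108 leaving out the library labelled wild type TAC 1). The comparison of genotypes after TAC gave -1.31 ± 1.04 (adjusted p = 0.439, and 0.324 without that library), and it turned to 0.25 without wild type TAC replicate 7. Spp1 shares 309 exon bases (18.8% of its exons) with Gm42793 on the same strand, and how much of its counts this touches is not known.

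**Figure D3:**
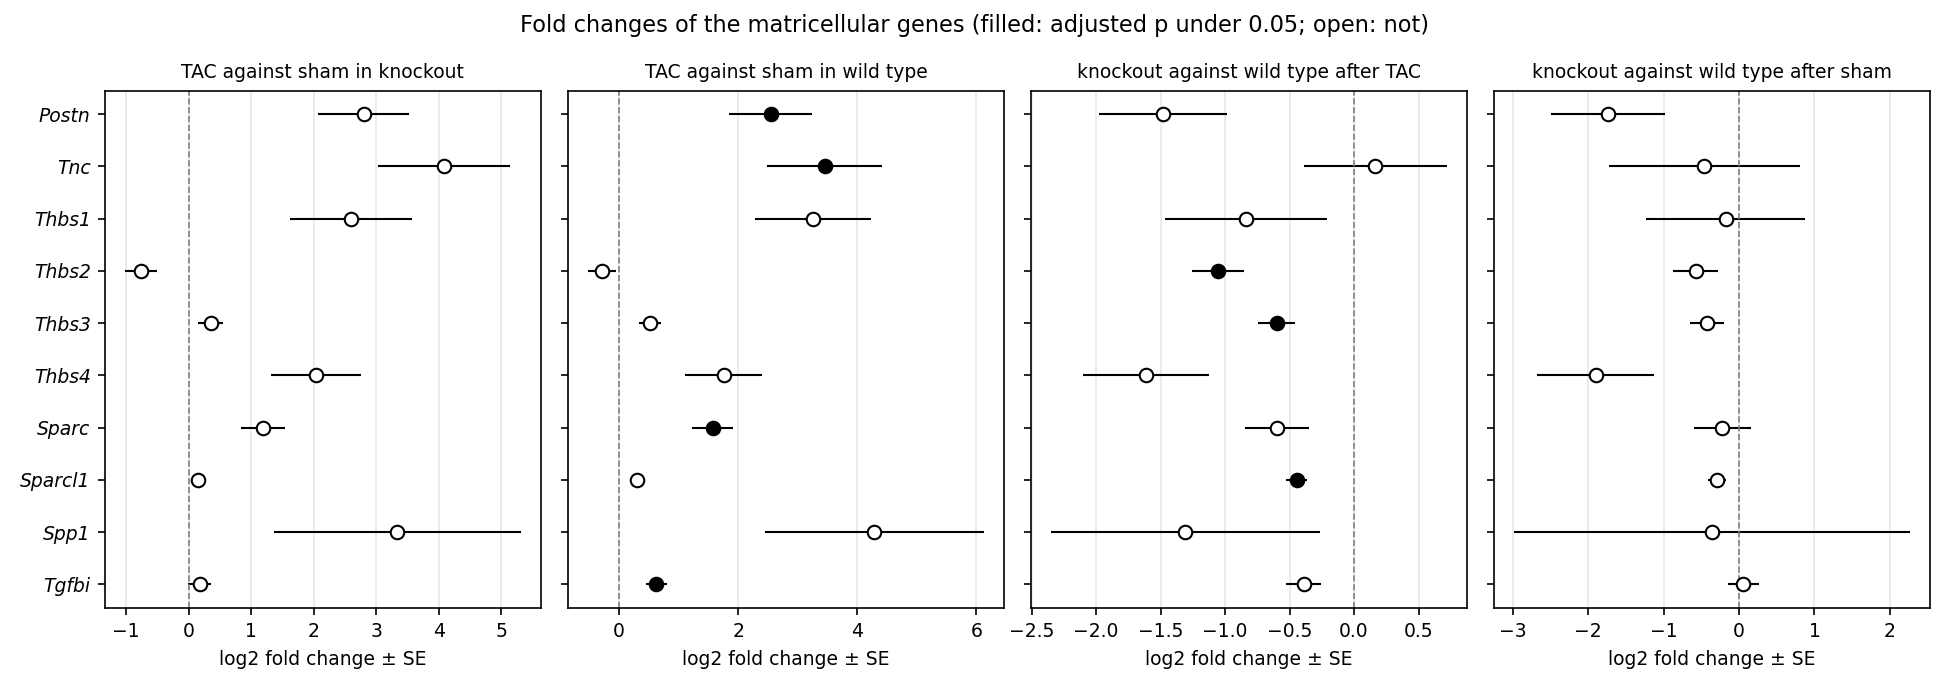
Log2 fold change with its SE for each gene in 4 comparisons; each panel has its own scale, a dashed line marks 0, and filled points have an adjusted p under 0.05. Tnc and Spp1 have the largest fold changes after TAC in both genotypes, and Thbs2 and Sparcl1 have short error bars below 0 between the genotypes after TAC.

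After sham surgery 0 of the 10 genes passed between the genotypes by edgeR, where 0.126% of all genes passed. Of the 10, 3 had an unadjusted p under 0.05 by edgeR, namely Postn, Thbs4 and Sparcl1, again with no share of all genes to set beside it. DESeq2 and limma voom called 0 (0.963% of genes with an adjusted p and 0.107% of all genes). With 2 libraries a side, 7 of the 10 genes had both knockout libraries below both wild type libraries, where 26.3% of all genes had no overlap in that direction. After TAC against sham, all libraries of 1 group lay above the other for 7 of the 10 genes in knockout hearts (17% of all genes) and for 9 of the 10 in wild type hearts (16.3% of all genes). Thbs2 had all knockout TAC libraries below knockout sham, which 17.6% of all genes had. A fit of only the 2 sham groups called 4 genes lower in knockout sham, which were Postn, Thbs2, Thbs3 and Thbs4, and 4.45% of all genes it tested were lower.

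The genotype by surgery interaction asks whether the response to TAC differs between knockout and wild type hearts, and 0 of the 10 genes passed, as did 0% of all genes by edgeR. None of the 10 had an unadjusted p under 0.05. DESeq2 called 6 genes (0.0378%) and none of the 10, and limma voom called 0. The interaction of Postn was 0.25 ± 0.87, that of Tnc was 0.63 ± 1.38, that of Thbs2 was -0.48 ± 0.36 and that of Sparcl1 was -0.15 ± 0.15 on the log2 scale. The 95% interval of Postn reached from -1.66 to 2.17, a range that spans both a smaller and a larger response in knockout hearts. The calls listed above for wild type hearts and not for knockout hearts therefore do not show that the responses differ.

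The TAC libraries differed in a graded way that most of the 10 genes shared. Wild type TAC replicate 7 was the highest of its group for 8 of the 10 genes and replicate 4 for the other 2, while the library labelled replicate 1 was the lowest for 5, replicate 2 for 4 and replicate 6 for 1. In knockout TAC, replicate 1 was the highest for 8 genes and replicate 4 the lowest for 8. The summed CPM of the 10 genes was 3203, 2987, 2086 and 2504 in knockout TAC replicates 1, 2, 4 and 5, against 1338 and 1440 in knockout sham. It was 2847, 2774, 4582, 4886, 4867 and 7597 in wild type TAC replicates 1, 2, 3, 4, 6 and 7, against 1870 and 1780 in wild type sham. The knockout TAC sums overlapped those of wild type TAC replicates 1 and 2 and lay below those of the other 4. Summed matrix partners (collagens, fibronectin, Lox and processing enzymes) were 3593, 3448, 1866 and 2224 CPM in knockout TAC replicates 1, 2, 4 and 5, and they were 2794, 2885, 6655, 5266, 5626 and 10405 CPM in wild type TAC replicates 1, 2, 3, 4, 6 and 7, again with replicate 7 the highest and replicates 1 and 2 the lowest of that group. The cardiomyocyte markers had their lowest sum, 41383 CPM, in wild type TAC replicate 7.

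**Figure D4:**
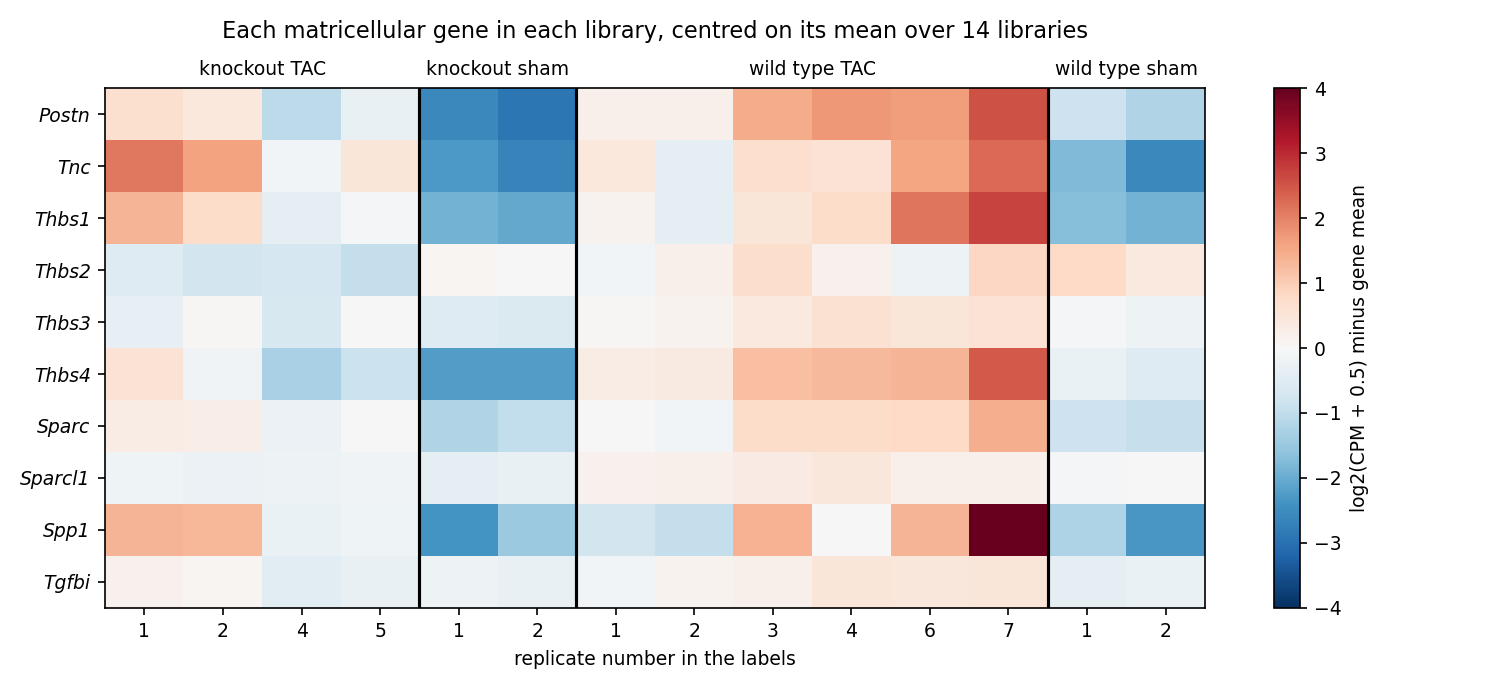
Log2(CPM + 0.5) of each gene in each library minus the mean of that gene over 14 libraries, in columns by group and replicate number. Wild type TAC replicate 7 has the deepest red for most genes, wild type TAC replicates 1 and 2 are pale, and Tnc is redder than Postn in the knockout TAC columns.

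Among the 10 genes, profiles over the 14 libraries were compared by the root mean square difference of their centred log2(CPM + 0.5). Tgfbi and Sparcl1 were closest at 0.22, followed by Thbs3 with Sparcl1 at 0.23, and these genes also varied little. Among the genes that varied more, Postn and Thbs4 differed by 0.42 and Tnc and Thbs1 by 0.49. Postn and Tnc differed by 0.87. Tnc and Thbs2 were farthest apart, at 1.87. The libraries of a group share surgery and genotype, so these differences are a description.

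The promoters of Postn, Thbs4 and Tnc are shown because Postn and Thbs4 had the closest profiles among the strongly varying genes, while the profile of Tnc differed more from that of Postn. Each is the 250 bases before a RefSeq transcript start on GRCm38.p6, 5′ to 3′ on the strand of the gene; capitals mark TATAAA and GGAATG on either strand. The Postn window lies at chr3:54360857-54361106 on the plus strand, the Thbs4 window at chr13:92794819-92795068 on the minus strand and the Tnc window at chr4:64047016-64047265 on the minus strand.
Postn: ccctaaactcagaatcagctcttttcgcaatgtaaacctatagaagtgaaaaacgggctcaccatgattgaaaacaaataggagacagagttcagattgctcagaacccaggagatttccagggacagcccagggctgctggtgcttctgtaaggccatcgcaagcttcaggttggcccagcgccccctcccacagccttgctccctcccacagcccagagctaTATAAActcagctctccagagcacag
Thbs4: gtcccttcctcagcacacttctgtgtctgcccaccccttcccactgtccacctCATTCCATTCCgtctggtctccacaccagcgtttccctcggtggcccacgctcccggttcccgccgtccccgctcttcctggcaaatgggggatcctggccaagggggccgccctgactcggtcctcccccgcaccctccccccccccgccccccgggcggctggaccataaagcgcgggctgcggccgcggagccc
Tnc: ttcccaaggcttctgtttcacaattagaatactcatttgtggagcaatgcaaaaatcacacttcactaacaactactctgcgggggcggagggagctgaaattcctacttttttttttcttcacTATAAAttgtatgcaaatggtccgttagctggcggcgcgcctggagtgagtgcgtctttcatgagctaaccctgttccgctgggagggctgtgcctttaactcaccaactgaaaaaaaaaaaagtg
TATAAA, the letters of a TATA box, begins 26 bases before the start of the Postn window's transcript and 126 bases before that of Tnc, and Thbs4 has 2 overlapping copies of GGAATG on the opposite strand, 197 and 192 bases before its start.

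Across the genes of the set, 11 RefSeq windows were found for 8 genes. TATAAA was in 5 of the 11, against 12.3% of the 32536 windows of all mouse genes. GGAATG, the core letters bound by TEAD factors, was in 1 of the 11, that of Thbs4, against 12.6% of all windows. GTCTG, part of the letters that SMAD factors bind, was in 8 of the 11, against 42.2% of all windows, and the AP-1 letters TGANTCA were in 0 of the 11, against 6.73% of all windows. All motifs were searched on both strands, and Postn, Tnc and Spp1 have 2 windows each, of which those of Tnc overlap and hold the same TATAAA. Some windows may not be promoters. In the Sparc window 238 of 250 bases lie in an annotated exon of the gene, and in that of Tgfbi 63 do. The Postn window not shown ends 1842 bases from the nearest annotated start. Each of these windows counts among those with GTCTG. A match is a description of these letters only.

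Within each surgery, the libraries of the genotypes did not overlap in their ratio of Tnc to Postn, while knockout sham overlapped wild type TAC. There were 8.44, 6.88, 5.57 and 5.05 Tnc counts per 100 Postn counts in knockout TAC replicates 1, 2, 4 and 5, and 3.01 and 2.66 in knockout sham. Wild type TAC replicates 1, 2, 3, 4, 6 and 7 had 3.48, 1.91, 1.69, 1.32, 2.82 and 2.48, and wild type sham had 1.37 and 0.886. All knockout TAC libraries lay above all wild type TAC libraries, and both knockout sham libraries lay above both wild type sham libraries. The highest wild type TAC value was that of the library labelled replicate 1, whose Ccl24 count went against its label. The log2 ratio of Postn to Tnc differed between knockout TAC and wild type TAC by -1.55, with an exact two-sided permutation p of 0.0048, the smallest that 210 groupings can give. Without the library labelled replicate 1 the difference was -1.69, with an exact permutation p of 0.0079. The test was made after the values had been seen, and over the 45 pairs that the 10 genes form the adjusted p was 0.107, which does not pass. Adjusted over 45 pairs, the smallest p that these groups allow passes only if several pairs reach it together. The ratio of Tnc to Thbs4 gave the same p, with a difference of 1.78 on the log2 scale, and these were the only 2 of the 45 pairs with no overlap. In 10 tests that each left out 1 TAC library, the size of the difference between Tnc and Postn lay between 1.41 and 1.69. Leaving out a library cannot make groups overlap that did not overlap before, so these tests say nothing on the overlap.

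**Figure D5:**
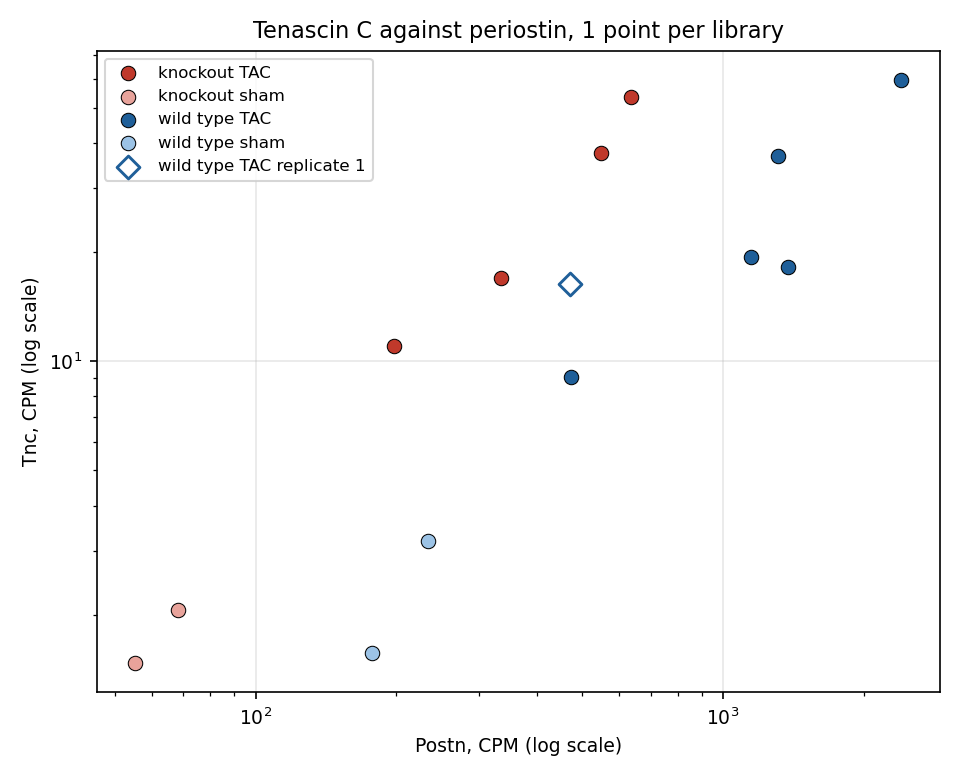
Tnc against Postn, both in CPM on log axes, with 1 point per library coloured by group. Knockout TAC libraries hold 5.05 to 8.44 Tnc counts per 100 Postn counts, against 1.32 to 3.48 in wild type TAC, and the sham libraries of both genotypes lie at lower Tnc and Postn than the TAC libraries of the same genotype.

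The genes with the profiles most like those of the 10 were found among all other genes tested, by the same root mean square difference over 14 libraries. Postn was closest to Cilp (0.31), a matrix protein of fibroblasts, which rose after TAC in wild type hearts by 2.56 on the log2 scale (adjusted p = 0.0419), then to Ltbp2 (0.31) and Col9a2 (0.36). Thbs4 was closest to Tgfb2 (0.31), which was lower in knockout TAC than in wild type TAC at -1.59 (adjusted p = 0.0423), and Mfap5 was also near (0.35). Thbs2 was closest to Dpep1 (0.20), Slit3 (0.20) and Fbln1 (0.23), and all 3 of these were lower in knockout TAC than in wild type TAC, at -0.98, -1.01 and -0.93 on the log2 scale (adjusted p of 0.0101, 0.00352 and 0.00313). Sparc was closest to Loxl1 (0.081), which crosslinks elastin, then to Emp1 (0.12) and Srpx2 (0.13). Tnc was closest to Timp1 (0.52), Nmrk2 (0.63) and Col9a2 (0.68), and Thbs1 to Timp1 (0.37), Ereg (0.42) and Col9a2 (0.50). Nmrk2, an enzyme of NAD synthesis, passed after TAC in both genotypes, with 3.32 in knockout hearts (adjusted p = 0.0225) and 2.30 in wild type hearts (adjusted p = 0.0325). Spp1 was closest to Lox (0.49), Col11a1 (0.58) and Timp1 (0.58). Sparcl1 was closest to Ltbp4 (0.087), Retreg2 (0.092) and Slc44a1 (0.092), Thbs3 to Rpl3-ps2 (0.14), Clip3 (0.15) and P4hb (0.16), and Tgfbi to Cmklr1 (0.11), Bcr (0.11) and B4galt2 (0.12). Ltbp4 was lower in knockout TAC than in wild type TAC at -0.48 (adjusted p = 0.00958). The neighbours were chosen on these libraries, so their tests are no separate evidence. Each of the calls given for them also passed leaving out the library labelled wild type TAC 1.

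Other matricellular genes, including the CCN genes, gave 0 calls of 11 tested after TAC in knockout hearts (2.36% of all genes were higher) and 3 higher in wild type hearts (6.36%). Those 3 were Fstl1 (1.78, adjusted p = 0.0178), Cyr61 (0.69, 0.0200) and Ctgf (2.14, 0.0482). Ctgf averaged 415 CPM in knockout TAC, 136 CPM in knockout sham, 651 CPM in wild type TAC and 147 CPM in wild type sham. Between the genotypes after TAC, Smoc2 (-0.53, adjusted p = 0.00997) and Tnxb (-0.56, 0.0166) were lower in knockout hearts, where 5.63% of all genes were. Leaving out the library labelled wild type TAC 1 the count was 5, against 10% of all genes. The median log2 fold change of the 11 genes was 0.18 after TAC in knockout hearts, 0.69 after TAC in wild type hearts and -0.56 between the genotypes after TAC.

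Of 18 receptors of these proteins, Itga9, an integrin subunit that binds tenascin C and osteopontin, was higher after TAC in knockout hearts by 0.61 on the log2 scale (adjusted p = 0.024), where 2.36% of all genes were higher. It was also higher in wild type hearts by 0.52 (adjusted p = 0.0233), as were Cd47, the thrombospondin 1 receptor (0.27, 0.0394), and Itgav (0.52, 0.0497), so 3 of 18 passed there, against 7 higher and 2 lower leaving out the library labelled wild type TAC 1. Between the genotypes after TAC, 1 of 18 was lower, as were 5.63% of all genes, and 1 was higher. Without that library 3 were lower, as were 10% of all genes, and 2 were higher. Lrp1, which clears thrombospondin complexes, was lower in knockout TAC at -0.78 (adjusted p = 0.006), with 237 CPM on average against 408 CPM in wild type TAC. Cd36, a fatty acid transporter that also binds thrombospondins, was higher at 0.36 (adjusted p = 0.0193; 3.71% of all genes were higher there), with 1295 CPM in knockout TAC against 1009 CPM in wild type TAC.

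Of 10 genes of TGF-beta ligands, receptors and latency proteins, Ltbp1 was lower after TAC in knockout hearts (-0.64, adjusted p = 0.0129), where 1.73% of all genes were lower. In wild type hearts 4 were higher after TAC: Tgfbr2 (0.51, adjusted p = 0.0151), Tgfb3 (0.99, 0.0375), Ltbp4 (0.40, 0.0483) and Tgfb1 (0.65, 0.0492), and 8 were leaving out the library labelled wild type TAC 1. Between the genotypes after TAC, 5 were lower in knockout hearts, where 5.63% of all genes were, with Tgfbr2 at -0.50 (adjusted p = 0.00495) and Tgfb2 at -1.59 (0.0423). Leaving out the library labelled wild type TAC 1, 9 of 10 were lower. Of 10 matrix partners that periostin, Sparc or tenascin C act on, 0 passed after TAC in knockout hearts and 6 were higher in wild type hearts, among them Col3a1 (2.05, adjusted p = 0.0251) and Col1a1 (2.01, 0.0444), with 8 higher leaving out the library labelled wild type TAC 1. In knockout hearts the log2 fold changes were 1.37 for Col3a1 and 1.47 for Col1a1 (adjusted p of 0.141 and 0.172). Col5a1 was lower in knockout TAC than in wild type TAC (-1.09, adjusted p = 0.0283), as 1 of 10, and the count was 7 without the library labelled replicate 1.

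Of 10 genes of the Atf6 pathway and endoplasmic reticulum folding, which in mouse hearts is linked to thrombospondin 4, 0 passed after TAC in knockout hearts, and Atf6 itself was lower after TAC in wild type hearts (-0.35, adjusted p = 0.0469), as were 5.8% of all genes. That call was lost leaving out the library labelled wild type TAC 1 (adjusted p = 0.0519). Atf6 averaged 77.4 CPM in knockout TAC, 82.7 CPM in knockout sham, 103 CPM in wild type TAC and 131 CPM in wild type sham. Between the genotypes after TAC, Atf6 (-0.41, adjusted p = 0.0129) and Xbp1 (-0.27, 0.0344) were lower in knockout hearts, where 5.63% of all genes were. The 5 lists were composed with earlier results of these data known.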

How the data were processed

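Polyadenylated RNA of 14 heart libraries was sequenced. The authors deposited whole-number counts of reads for each gene, not normalized. Per the submitters' processing notes FastQC, HISAT2 2.1.0, featureCounts and edgeR were used on GRCm38; what each did, its settings, the annotation release and the use of strand are not stated there, so genes that share exons are uncertain. Of 54532 gene IDs, 54409 matched GENCODE M21 (GRCm38), which gave coordinates and exon lengths. Promoter sequences are those of RefSeq on GRCm38.p6.

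Counts were analysed with edgeR 4.0.16 (R 4.3.3): filterByExpr with a minimum count of 10, TMM scaling, and a quasi-likelihood test over 4 group means of all 14 libraries. P-values were adjusted by Benjamini-Hochberg over 15876 genes, with a threshold of 0.05, in 5 comparisons. SE is the log2 fold change divided by the square root of F. Between 0.0899 and 0.172 CPM stood for 3 counts. The Poisson interval of the Ccl24 count covers counting error only, while intervals of log2 fold changes come from the quasi-likelihood fit and rest on the spread between libraries. Tests were checked on simulated counts. Alternatives were RLE scaling, no filter, DESeq2 1.42.0, limma voom (limma 3.58.1), only the 2 groups compared, a replicate block, and leaving out each library. Within groups, pairs of libraries differed beyond sampling noise (chi-square per degree of freedom 4.62 to 186).

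Named were the 10 genes, Ccl24, up to 4 genes with the smallest p per list, 3 nearest profiles per gene, and the cell type markers. For Thbs4, 1 of the 3 is not reported here. The genes and lists were chosen with earlier results of these data known. The permutation tests of ratios were added after the values were seen.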

Additional observations from a re-analysis of the deposited data

Results flagged for a closer look

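In 20 combinations of gene and TAC group, the highest or lowest library was compared with the rest by Dixon's test on CPM, and 2 passed. Chance alone passes it in about 1 of 20 groups if the values are normally distributed. The test was not made on the log2 scale, where a high value stands out less. Thbs4 had 275 CPM in wild type TAC replicate 7, and the nearest library of that group had 129 CPM. Spp1 had 71.9 CPM in the same library, and the nearest had 10.7 CPM. Wild type TAC replicate 7 was also the most deeply sequenced library, with 33123052 counts, and had the lowest mitochondrial share, 10.1%. Without it the log2 fold change of Spp1 between knockout TAC and wild type TAC was 0.25, against -1.31 with it. That of Thbs4 was -1.23.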

How the results depend on the processing

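Of 990 alternative values for the 10 genes, 885 kept their direction and their side of the threshold, 39 lost and 50 gained a call, and 16 changed sign. Only results called in the main fit could lose a call, and most of the 990 values belong to results not called there. The 885 therefore do not measure how stable the calls were. The cause of these changes was not tested. The replicate block gives each replicate number its own term. Wild type TAC 3, 6 and 7 and knockout TAC 5 have numbers that no other library has, so the block fits them exactly. Its comparisons therefore rest on the libraries numbered 1, 2 and 4, among them the one labelled wild type TAC 1. Numbers called among the 10 genes moved as follows. TAC against sham in wild type gave 4 calls, but 2 without the filter on low counts, 9 with DESeq2, 0 with only the 2 groups compared and 0 with the replicate block, and 0 to 7 when 1 library was left out. TAC against sham in knockout gave 0, but 6 with DESeq2, 2 with limma voom, 2 with only the 2 groups compared and 1 with the block, and 0 to 4 when 1 library was left out. Knockout against wild type after TAC gave 3, but 5 with DESeq2, 5 with voom and 1 with the block, and 2 to 6 when 1 library was left out. After sham surgery 4 were called in place of 0 with only the 2 groups compared. Calls over all genes tested also depended on the setting. The 6 settings other than leaving out a library gave 22 to 2803 calls after TAC in wild type hearts. Between the genotypes after TAC they gave 45 to 2351. A count among the 10 genes is therefore to be read beside the calls over all genes in the same setting, which are not given for every setting.

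Over all genes, TAC against sham in wild type gave 1930 calls, but 736 with only the 2 groups and 22 with the block, and 0 (without wild type sham replicate 2) to 2756 when 1 library was left out. In knockout hearts there were 648, but 1342 with DESeq2, 1458 with only the 2 groups and 367 with the block, and 1 to 1361 when 1 library was left out. Knockout against wild type after TAC gave 1483, but 2351, 783 and 45 in those settings, and 302 to 2939 when 1 library was left out. After sham surgery there were 20, but 44 without the filter, 147 with DESeq2, 1158 with only the 2 groups and 13 with the block, and 3 to 79 when 1 library was left out. The interaction gave 0, but 3 without the filter and 6 with DESeq2, and 0 to 3 when 1 library was left out. Leaving out a sham library leaves 1 in that group, which is assumed to vary like the others.

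Signs turned for knockout against wild type after TAC in Tnc (-0.28 without knockout TAC replicate 1, -0.014 without wild type TAC replicate 2; at most 0.59 with 1 library left out), Thbs1 (0.45 with the replicate block) and Spp1 (1.54 with the block; -1.59 to 0.25 with 1 library left out, highest without wild type TAC replicate 7). After sham surgery they turned in Tnc (0.16, against -0.86 without replicate 2) and Tgfbi (-0.0066) without wild type sham replicate 1, and in Spp1 (0.24 without knockout sham replicate 1, 0.91 without wild type sham replicate 1, and -1.48 at the lowest). For the interaction they turned in Postn (-0.0044) and Thbs4 (-0.16) without knockout TAC replicate 1, where the highest values with 1 library left out were 0.60 and 0.69, in Thbs1 (0.62), Sparc (0.12) and Spp1 (1.88) with the block, and in Spp1 without knockout sham replicate 2 (0.16) or wild type TAC replicate 7 (0.63), with -2.23 at the lowest.

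Libraries with the same replicate number did not deviate together (correlation of their deviations from the group means -0.24 to 0.11), so the numbers were not taken to pair samples. With the replicate block Thbs2 was still lower in knockout TAC. Thbs3 missed the threshold at -0.58 (adjusted p = 0.382), and Sparcl1 missed it at -0.47 (adjusted p = 0.14). Scaling by RLE moved the median of all genes by less than 0.1 on the log2 scale in every comparison. Both scalings set most genes near 0, so this small shift does not test whether the scaling is right. Low counts limit Spp1 in the sham groups (6 to 31 counts).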
